A study of Mus musculus with 8 samples.

Results

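The genes described here are 10 genes of fat cell formation and lipid storage, namely the transcription factors Pparg, Cebpa, Cebpb, Cebpd and Klf5 and the lipid genes Lpl, Cd36, Fabp4, Plin2 and Adipoq. They were taken by gene symbol from a table of RNA-seq read counts, in which all 10 were found among 53465 gene identifiers. The samples are labelled bone-marrow MSCs (mesenchymal stem cells, stromal cells able to form bone, fat and cartilage cells), which the study grew out of enzyme-treated hind limb bone of male C57BL/6N mice aged 3 to 5 months. Cells that had grown out at 2% oxygen were sorted on day 12, per the labels, as CD45-/Ter-119-/Sca-1+/CD140a+ cells. Each sort then gave a hypoxia culture at 2% oxygen and a normoxia culture at 21% oxygen, both kept for a further week. All cells were in control α-MEM medium without adipogenic inducers, so neither group had been induced to form fat cells. There were 4 hypoxia-cultured and 4 normoxia-cultured samples, numbered 1 to 4 in each group and described as independent biological replicates.

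Adipogenesis is driven by a cascade of transcription factors. In cell culture models C/EBPβ and C/EBPδ, encoded by Cebpb and Cebpd, are induced early and help to switch on Pparg and Cebpa, which then activate each other and the genes of the mature fat cell, while KLF5 acts between the early and the late factors. Lipoprotein lipase (Lpl) releases fatty acids from circulating triglyceride, CD36 takes them up at the cell surface, FABP4 carries them in the cytosol, PLIN2 coats lipid droplets in many cell types, and adiponectin (Adipoq) is a hormone of fat cells. Stromal cells of the bone marrow express several of these genes before any lipid is stored, and macrophages also express Lpl, Cd36 and Plin2.

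Between 12898291 and 25132141 reads were counted per sample, hypoxia replicate 1 being the deepest and no other sample exceeding 13433824. At these depths 3 counts correspond to 0.119 to 0.233 CPM (counts scaled to library size), the smallest level taken as detected, a limit that covers counting error only. The sorted markers were present in every sample, with 1928 to 4011 counts of Pdgfra (CD140a) and 4636 to 11995 of Ly6a (Sca-1). Ptprc, which encodes the CD45 against which the cells had been sorted, had 140 to 263 counts, and all 15 macrophage and monocyte markers examined were above the filter on low counts. Neutrophil markers summed to at most 0.859 CPM, erythroid markers to at most 0.231 CPM and endothelial markers to 4.09 to 6.87 CPM. Mesenchymal stromal markers summed to 86260 to 95290 CPM in hypoxia and to 59890 to 64480 CPM in normoxia. The stromal sum was thus lower in every normoxia-cultured sample, and nearly all of it came from the collagen genes Col1a1 and Col1a2. In such bulk samples fewer cells of a type and less RNA per cell cannot be told apart.

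Of the 10 genes, Cebpd rose and Cebpa fell in normoxia, and the other 8 did not pass the test (limma-trend, Benjamini-Hochberg adjusted p under 0.05 over 14369 genes). All 10 had passed the filter on low counts. Over all tested genes 34.6% passed, 18% higher and 16.5% lower in normoxia, so that 2 calls among 10 genes was not more than the background. When samples with the same number were treated as pairs (replicate block), Lpl, Cd36 and Plin2 also rose, giving 4 higher and 1 lower. With the block 46% of all tested genes passed, 23.3% higher and 22.7% lower. After a correction for the GC content and length of the transcripts, which adds Cebpb and Plin2 to the rises, 3 of the 10 were higher and 1 lower, with 29.5% of all genes passing. With the block and this correction together 5 were higher and 2 lower, with 43.2% passing. The median log2 change (normoxia minus hypoxia throughout) was 0.123 over the 10 genes and 0.00485 over all tested genes.

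**Figure D1:**
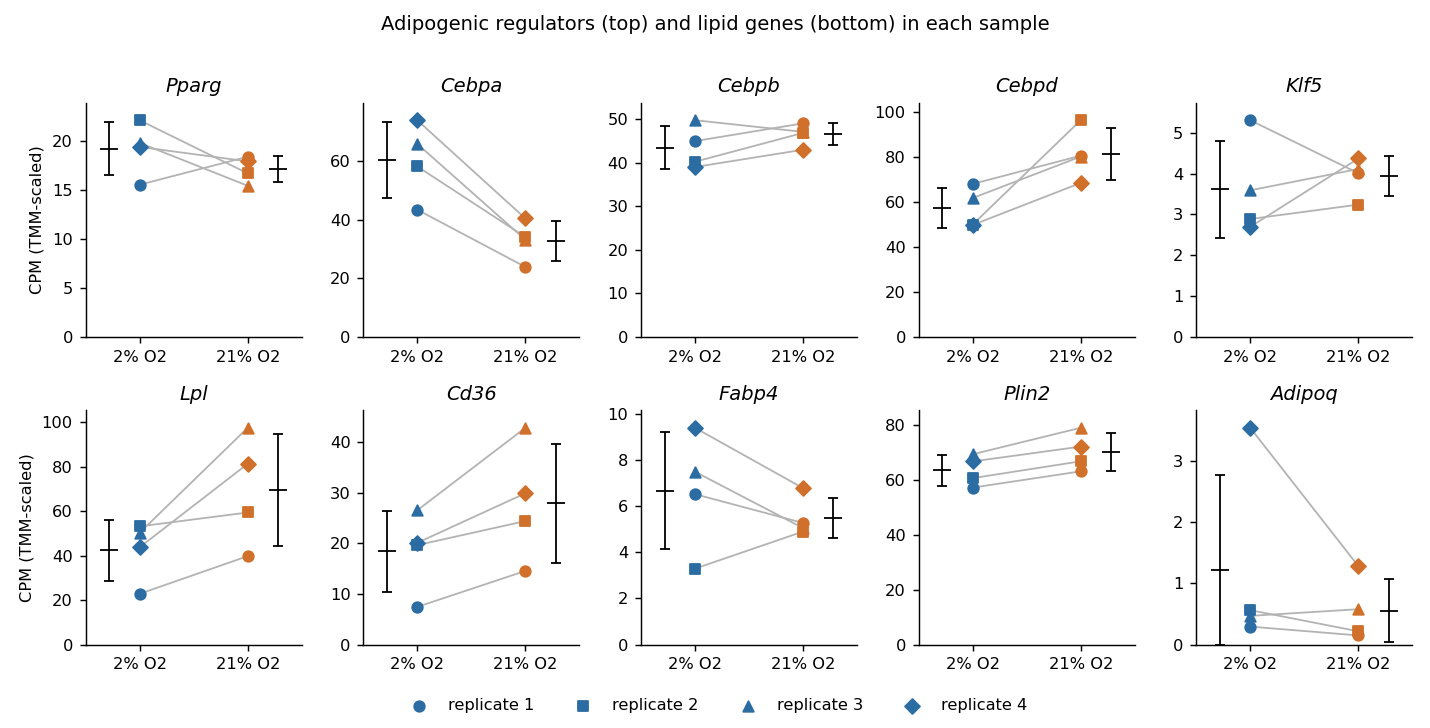
CPM on TMM-scaled libraries (vertical axes, each from 0) of the 5 regulators (top) and the 5 lipid genes (bottom) in the 4 samples at 2% O2 (blue) and the 4 at 21% O2 (orange). Grey lines join samples with the same replicate number, and black bars are the group mean ± SD, drawn no lower than 0. The groups are apart for Cebpa and Cebpd, and for Lpl, Cd36 and Plin2 all 4 lines rise although the groups overlap.

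**Figure D2:**
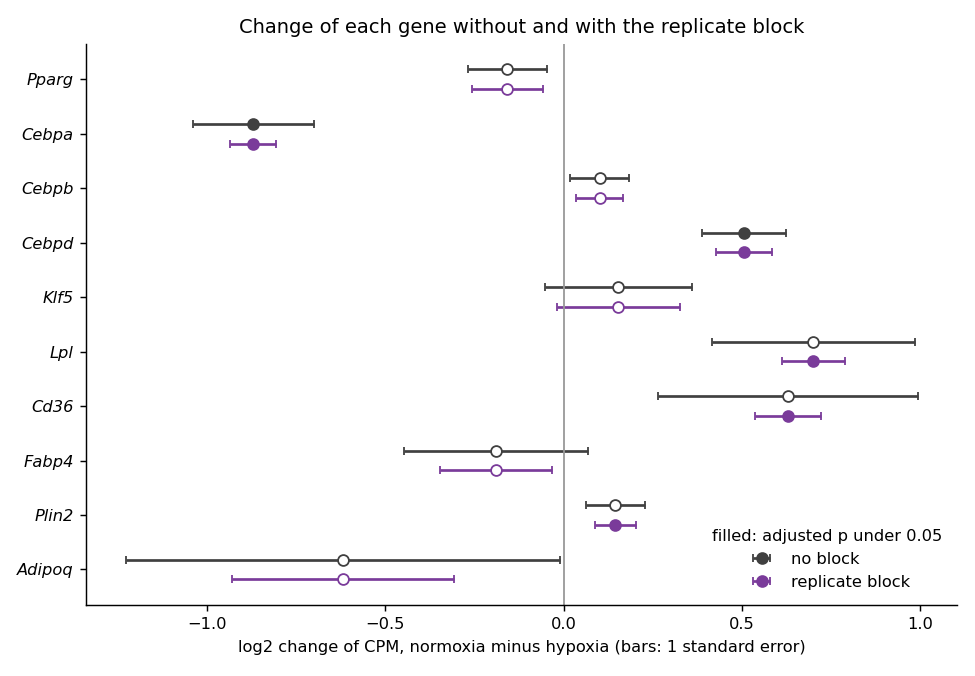
Log2 change of CPM (horizontal axis, normoxia minus hypoxia) for each of the 10 genes, with bars of 1 standard error, in the limma-trend fit without (grey) and with (purple) the replicate block. Filled points have an adjusted p under 0.05, which in grey are Cebpa and Cebpd and in purple are these with Lpl, Cd36 and Plin2.

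Per kilobase of the longest consensus coding transcript, Plin2 had the highest level of the 10 genes, with a mean of 35.3 CPM per kb over the 8 samples. Cebpb followed with 29.9, Cebpd with 18.6, Cebpa with 17.8 and Lpl with 13.6 CPM per kb. Lower levels per length were seen for Pparg with 8.56, Cd36 with 6.82, Fabp4 with 6.80, Klf5 with 1.13 and Adipoq with 0.686 CPM per kb. The ranges over samples of neighbours in this order overlapped except for Cebpb with Cebpd and Fabp4 with Klf5, and the order of the means differed between the groups for several genes. Cebpa was above Cebpd and Lpl in hypoxia and below both in normoxia, and Cd36 was below Pparg and Fabp4 in hypoxia and above both in normoxia. In hypoxia the mean level per length of Cebpa was 23.0 ± 4.96 CPM per kb against 15.3 ± 2.42 for Cebpd, and in normoxia it was 12.5 ± 2.6 against 21.8 ± 3.06 (SD, n = 4).

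Cebpa (ENSMUSG00000034957, chromosome 7, 35119293 to 35121928, plus strand, GRCm38) encodes C/EBPα, the member of its family that acts late in the cascade and maintains the fat cell state. Its level in hypoxia was 43.5, 58.2, 66.0 and 74.0 CPM in replicates 1 to 4, and in normoxia it was 23.9, 34.1, 33.2 and 40.5 CPM. Every hypoxia-cultured sample was above every normoxia-cultured sample, the closest being hypoxia replicate 1 and normoxia replicate 4. The group means were 60.4 ± 13 and 32.9 ± 6.82 CPM (SD, n = 4). The log2 change was -0.87 (SE 0.169, limma-trend adjusted p = 0.00216), which makes the level in hypoxia 1.83-fold that in normoxia. It was similar in each pair, at -0.86, -0.77, -0.99 and -0.87 for numbers 1 to 4. The transcript is rich in G and C (62.6%), and after the correction for GC content and length the log2 change was smaller, at -0.64. It passed in both fits (limma-trend adjusted p = 0.00752 unblocked and 4.13e-10 blocked). Among all tested genes 32.6% had groups that did not overlap, 15.5% with normoxia lower, and 26.8% were lower in 4 of 4 pairs.

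The sequence before the start of Cebpa is shown because this is the member with the largest change that passed the test. These 250 bases, chr7:35119043-35119292 on the plus strand of GRCm38.p6 from RefSeq, have a GC content of 66.4%, and the capitals mark a TATA box (TATAAA) that begins 30 bases before the start site.

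Cebpa: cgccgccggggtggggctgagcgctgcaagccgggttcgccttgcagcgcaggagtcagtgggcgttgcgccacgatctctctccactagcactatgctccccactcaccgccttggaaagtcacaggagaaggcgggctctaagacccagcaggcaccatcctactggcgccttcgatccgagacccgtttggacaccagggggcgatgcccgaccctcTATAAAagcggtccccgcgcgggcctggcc

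TATAAA, searched on both strands, was found in 12.4% of 32851 such RefSeq windows. The core letters of the hypoxia response element, ACGTG, were in none of the 8 windows available for Pparg, Cebpa, Cebpb, Cd36, Plin2 and Adipoq, and in 16.6% of all windows. The C/EBP-like letters TTGCNNAA were in 9.56% of all windows and in 1 of these 8, at the most downstream of the 3 start sites of Pparg, where they occurred at 215 and at 16 bases before the start on opposite strands. CCAAT was in 5 of the 8 windows and in 33.8% of all.

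Cebpd (ENSMUSG00000071637, chromosome 16, 15887286 to 15891031, plus strand) encodes C/EBPδ, one of the early factors. Its level in hypoxia was 68.1, 50.0, 61.8 and 49.9 CPM in replicates 1 to 4, and in normoxia it was 80.7, 96.5, 80.3 and 68.6 CPM. Normoxia was higher in every sample, but only just, since hypoxia replicate 1 and normoxia replicate 4 were close to each other. The means were 57.4 ± 9.07 and 81.5 ± 11.5 CPM (SD, n = 4), with a log2 change of 0.51 (SE 0.117, limma-trend adjusted p = 0.00583). The pairs differed by 0.24, 0.95, 0.38 and 0.46, the largest being that of number 2. Over all tested genes 17.1% had groups apart with normoxia higher and 27.7% were higher in 4 of 4 pairs. The gene shares 562 bases of exon with Spidr on the opposite strand, which had 238 to 454 counts, and whether reads were counted by strand is not stated.

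Cebpb (ENSMUSG00000056501, chromosome 2, 167688915 to 167690418, plus strand), the other early factor, had 44.9, 40.2, 49.7 and 39.0 CPM in hypoxia and 49.0, 46.8, 47.1 and 43.0 CPM in normoxia. The groups overlapped, and normoxia was higher in 3 of 4 pairs. Its log2 change of 0.10 (SE 0.083) did not pass the test (limma-trend adjusted p = 0.384). The transcript is rich in G and C (67.1%), and when a smooth trend with GC content and length was removed from every sample the log2 change of Cebpb was 0.40 and passed the test (limma-trend adjusted p = 0.00542 unblocked and 1.82e-06 blocked). Its rise therefore holds only under that correction. It shares 312 bases of exon with Tmem189 on the opposite strand, which had 323 to 655 counts.

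Pparg (ENSMUSG00000000440, chromosome 6, 115360951 to 115490399, plus strand), the nuclear receptor that is required for fat cell formation, had 15.5, 22.1, 19.8 and 19.4 CPM in hypoxia and 18.4, 16.7, 15.4 and 17.9 CPM in normoxia. The groups overlapped, hypoxia replicate 1 lying among the normoxia-cultured samples, and normoxia was lower in 3 of 4 pairs. The log2 change was -0.16 (SE 0.111, limma-trend adjusted p = 0.302 unblocked and 0.203 blocked). Without the pair numbered 1 the blocked log2 change was -0.30 and passed the test (limma-trend adjusted p = 0.019). Counts per gene cannot tell apart the transcripts of Pparg that begin at different start sites.

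Klf5 (ENSMUSG00000005148, chromosome 14, 99298691 to 99315036, plus strand) had 5.31, 2.89, 3.59 and 2.70 CPM in hypoxia and 4.01, 3.24, 4.11 and 4.37 CPM in normoxia. Hypoxia replicate 1 had the highest value and the other hypoxia-cultured samples overlapped with normoxia. The log2 change was 0.15 (SE 0.206, limma-trend adjusted p = 0.606). It was 0.34 without hypoxia replicate 1 and 0.035 without hypoxia replicate 4, and passed in neither case.

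The counts of the regulators were also set against each other within each sample, which removes the library scaling. For each count of Cebpd there were 0.638, 1.165, 1.067 and 1.485 counts of Cebpa in hypoxia and 0.296, 0.354, 0.413 and 0.590 in normoxia. The groups did not overlap, as follows from the values of Cebpa and Cebpd above, and no test is given. The ratio of Cebpa to Pparg counts was 3.14 ± 0.538 in hypoxia and 1.94 ± 0.434 in normoxia, and that of Cebpb to Cebpd was 0.763 ± 0.0695 and 0.576 ± 0.0629 (SD, n = 4). Both of these ratios were lower in normoxia in 4 of 4 pairs (two-sided exact permutation test of signs within pairs, p = 0.125, the smallest that 4 pairs allow). Cebpa had itself fallen and Cebpd had itself risen in 4 of 4 pairs, so these ratios are not separate support.

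Lpl (ENSMUSG00000015568, chromosome 8, 68880491 to 68907448, plus strand) had 22.8, 53.1, 50.2 and 43.7 CPM in hypoxia, replicates 1 to 4. In normoxia it had 39.7, 59.4, 97.4 and 81.2 CPM. Both samples numbered 1 were the lowest of their group, and normoxia replicate 1 lay below 3 of the hypoxia-cultured samples, so the groups overlapped. Within pairs normoxia was higher each time, by 0.80, 0.16, 0.95 and 0.89 on the log2 scale. The means were 42.4 ± 13.7 and 69.4 ± 25.2 CPM (SD, n = 4) and the log2 change was 0.70, which did not pass without the block (SE 0.284, limma-trend adjusted p = 0.075) and passed with it (adjusted p = 7.67e-07). Without hypoxia replicate 1 the unblocked change was 0.43, and with the block and any 1 pair left out it ranged from 0.62 to 0.88 and passed each time.

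Cd36 (ENSMUSG00000002944, chromosome 5, 17781690 to 17888801, minus strand) had 7.44, 19.7, 26.5 and 20.1 CPM in hypoxia. In normoxia it had 14.6, 24.4, 42.9 and 29.9 CPM. As for Lpl, replicate 1 was the lowest and replicate 3 in normoxia the highest, and the groups overlapped while every pair rose, by 0.95, 0.31, 0.69 and 0.57. The log2 change was 0.63 (SE 0.364), with a limma-trend adjusted p of 0.206 unblocked and 5.67e-06 blocked. It was 0.25 without hypoxia replicate 1 and no block, and 0.39 after the correction for GC content and length, where it passed with the block (adjusted p = 0.000377) and not without it (limma-trend adjusted p = 0.463).

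Plin2 (ENSMUSG00000028494, chromosome 4, 86648386 to 86670060, minus strand) varied little, with 57.1, 60.5, 69.2 and 66.6 CPM in hypoxia and 63.0, 66.6, 78.8 and 72.0 CPM in normoxia. The order of the replicates was the same in both groups, and the pairs differed by 0.14, 0.14, 0.19 and 0.11. The log2 change of 0.15 (SE 0.0836) passed with the replicate block (limma-trend adjusted p = 0.0394) and not without it (limma-trend adjusted p = 0.203). With any 1 pair left out the blocked adjusted p was 0.0549 to 0.168, and with DESeq2 and the block it was 0.149. After the correction for GC content and length the log2 change was 0.22 and passed in both fits (limma-trend adjusted p = 0.04 unblocked and 0.000804 blocked).

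The windows before the RefSeq start sites of Cd36 and Plin2 are shown because both genes rose in every pair and both windows hold the nuclear receptor half-site AGGTCA, read on the opposite strand as TGACCT. It lies 228 bases before the start of Cd36 (chr5:17835897-17836146, minus strand, GC content 43.2%) and 218 bases before that of Plin2 (chr4:86670060-86670309, minus strand, GC content 61.6%). The capitals mark this half-site and the CCAAT letters, both windows are from GRCm38.p6, and the RefSeq start of Cd36 lies inside the gene span given above.

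Cd36: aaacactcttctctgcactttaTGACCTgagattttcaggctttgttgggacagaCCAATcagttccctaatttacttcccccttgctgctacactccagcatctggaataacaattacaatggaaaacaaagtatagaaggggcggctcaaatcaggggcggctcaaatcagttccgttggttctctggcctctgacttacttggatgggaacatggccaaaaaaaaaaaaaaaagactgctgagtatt
Plin2: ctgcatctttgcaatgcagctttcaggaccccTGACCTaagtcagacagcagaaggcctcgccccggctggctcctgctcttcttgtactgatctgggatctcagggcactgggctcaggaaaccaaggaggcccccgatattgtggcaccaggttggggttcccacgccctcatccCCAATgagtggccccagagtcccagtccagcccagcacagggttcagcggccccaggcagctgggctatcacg

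AGGTCA on either strand was in 14.0% of the 32851 windows and in 4 of the 8 windows of these genes, the other 2 being windows of Pparg. The PPAR direct repeat, AGGTCA given again after 1 base of any kind, was in none of the 8 windows and in 0.0335% of all. These are matches of letters only. The windows of Cd36 and Plin2 were picked for the half-site and the rise together, so their coincidence was fixed by that choice. Of all tested genes 27.7% were higher in 4 of 4 pairs. Pparg holds the half-site too and was lower in normoxia in 3 of 4 pairs, and no window was held for Lpl.

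Fabp4 (ENSMUSG00000062515, chromosome 3, 10204088 to 10208576, minus strand) had 6.52, 3.29, 7.49 and 9.40 CPM in hypoxia and 5.27, 4.90, 5.05 and 6.78 CPM in normoxia. Hypoxia spanned both the lowest and the highest value, and pair 2 rose while the other 3 fell. The log2 change was -0.19 (SE 0.257, limma-trend adjusted p = 0.609), close to 0 without hypoxia replicate 4 and -0.49 without hypoxia replicate 2 (limma-trend adjusted p = 0.0452). With the block and the correction for GC content and length it was -0.39 and passed (limma-trend adjusted p = 0.0431).

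Adipoq (ENSMUSG00000022878, chromosome 16, 23146536 to 23158028, plus strand) was counted 7, 7, 6 and 46 times in hypoxia and 2, 3, 8 and 17 times in normoxia. These counts are 0.293, 0.562, 0.468 and 3.54 CPM, and 0.149, 0.216, 0.577 and 1.28 CPM. Replicate 4 was the highest in both groups, and normoxia replicate 1 had fewer than the 3 counts taken as detected. The log2 change of -0.62 (SE 0.608, limma-trend adjusted p = 0.469) was 0.02 without hypoxia replicate 4. With the block it did not pass either (limma-trend adjusted p = 0.11), although it passed with the block in the edgeR test (log2 change -1.03, adjusted p = 0.033) and with the block and pair 3 left out (limma-trend adjusted p = 0.0405).

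In the comparison as first described, without block or correction, none of the 5 lipid genes passed limma-trend. At an unadjusted p under 0.05 there was 1, which was higher, and the edgeR quasi-likelihood test, DESeq2 and limma-voom called 0.

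How much of each gene's spread followed oxygen and how much followed the replicate number was measured as a share of the sum of squares of log2 CPM over the 8 samples. For Cebpa and Cebpd oxygen held 70.8% and 65.2%, above the median of all tested genes of 38.6%. The replicate number held 77.1% for Cd36, 70.7% for Plin2 and 58.9% for Lpl, with 2.70%, 0.988% and 6.99% left over, against a median of 31.6% for the number over all tested genes. For Adipoq it held 83.5%, and 4.92% of tested genes had a larger share. That percentage was 8.69% for Cd36, 13% for Plin2, 21.8% for Lpl and 28.5% for Klf5. The replicate number has more levels than oxygen, so noise alone tends to give it the larger share. The shares of number and oxygen are therefore not like for like. Most of the spread of Pparg, 58.7%, followed neither.

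**Figure D3:**
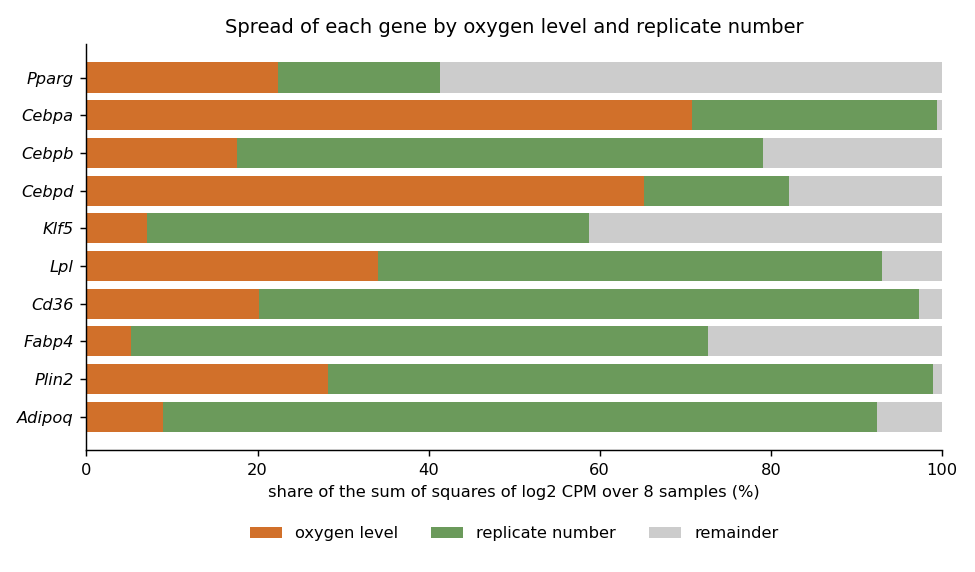
Share of the sum of squares of log2 CPM over 8 samples (horizontal axis, %) that follows oxygen level (orange), replicate number (green) or neither (grey) for each of the 10 genes. Oxygen takes most of the bar for Cebpa and Cebpd, and the replicate number takes most of it for Lpl, Cd36, Plin2, Fabp4, Adipoq, Cebpb and Klf5. The replicate number has more levels than oxygen and tends to take more of the bar by noise alone.

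The level of macrophage markers followed the replicate number in the same order as Cd36 and Plin2 did, in both groups. The mean log2 CPM of the 15 markers was 4.83, 5.39, 6.0 and 5.65 in hypoxia and 4.62, 4.99, 5.71 and 5.25 in normoxia, lowest in replicate 1 and highest in replicate 3 in both groups. Their summed level was 767 to 1669 CPM in hypoxia and 820 to 1597 CPM in normoxia. Of the 15, Lyz2 (lysozyme) rose with a log2 change of 0.56 and Mrc1 and C1qa fell, which is 20% called against 34.6% of all tested genes. Their median log2 change was -0.319. Under the block 1 was higher and 9 lower, where 46% of all tested genes passed. The calls of Mrc1 and C1qa were each lost in 6 of 8 fits with 1 sample left out, and that of Lyz2 in 2. The mean log2 level was lower in normoxia in all 4 pairs. The summed level instead rose in pair 1, from 767 to 820 CPM. Its group means were 1215 ± 377 CPM in hypoxia and 1152 ± 333 CPM in normoxia (SD, n = 4, two-sided exact permutation test, p = 0.8). In a fit chosen after the data were seen, with the marker level as a covariate, the log2 change was 1.04 for Lpl (SE 0.144, limma-trend adjusted p = 0.00028), 1.10 for Cd36 (SE 0.125, adjusted p = 9.51e-05) and 0.23 for Plin2 (SE 0.0595, adjusted p = 0.0102). In that fit Cebpa changed by -0.70 (limma-trend adjusted p = 0.00127) and Cebpd by 0.46 (adjusted p = 0.0113), and the other 5 genes did not pass. The covariate was itself lower in normoxia, so adjusting for it shifts the oxygen changes. Without it the log2 changes of Lpl, Cd36 and Plin2 were 0.70, 0.63 and 0.15. Per count of Adgre1, which encodes the macrophage antigen F4/80, there were 0.171 ± 0.0449 counts of Cd36 in hypoxia and 0.282 ± 0.0430 in normoxia (SD, n = 4). For Lpl these ratios were 0.414 ± 0.128 and 0.712 ± 0.101 (SD, n = 4). Per count of the stromal gene Pdgfra, Lpl had 0.245 ± 0.0815 and 0.338 ± 0.124 counts (SD, n = 4). Each of these 3 ratios was higher in normoxia in 4 of 4 pairs (two-sided exact permutation test of signs within pairs, p = 0.125, the smallest that 4 pairs allow). Without regard to the pairs the exact permutation p was 0.0571, 0.0571 and 0.314, and the groups overlapped. Lpl and Cd36 had themselves risen in 4 of 4 pairs, so these ratios are not separate support. Which cells of the samples carried Lpl, Cd36, Plin2, Cebpa or any other member was not tested.

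**Figure D4:**
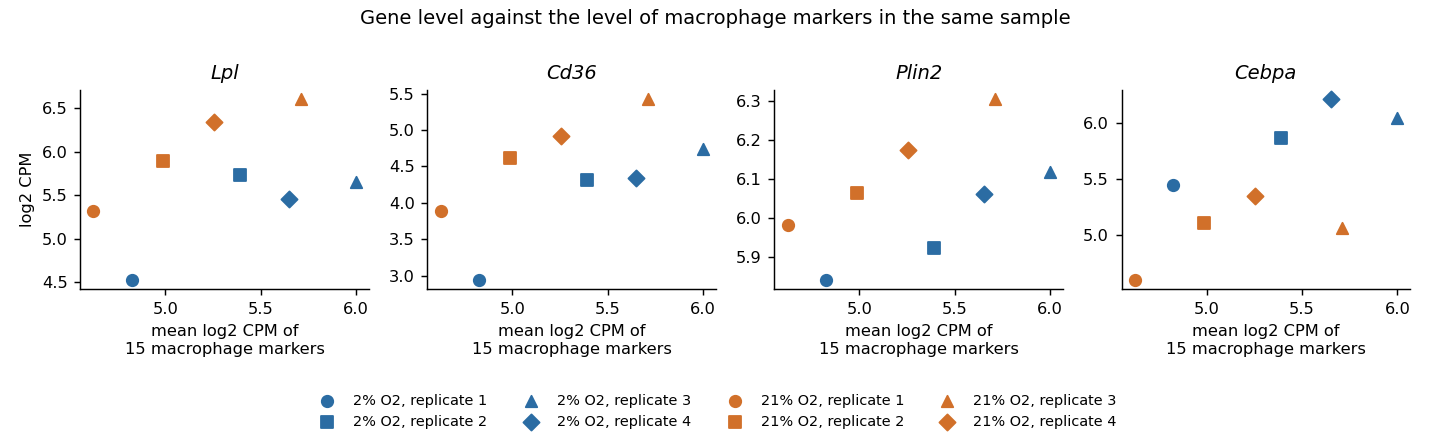
Log2 CPM of Lpl, Cd36, Plin2 and Cebpa (vertical axes, not from 0) against the mean log2 CPM of 15 macrophage markers in the same sample (horizontal axis), with 2% O2 in blue, 21% O2 in orange and a symbol for each replicate number. Within each group Cd36 and Plin2 are lowest in replicate 1 and highest in replicate 3, where the marker level is also lowest and highest, and at a like marker level Lpl, Cd36 and Plin2 are higher at 21% O2.

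Most markers of mature fat cells were near the limit of detection. Of 14 such genes, Lep (leptin), Pck1 and Ucp1 had 0 counts in every sample, 7 of the 14 had at most 3 counts in any sample, and 3 passed the filter. Plin1, the droplet protein of mature fat cells, had 1 to 21 counts, against 754 to 1365 for Plin2. The 14 genes summed to 4.43 to 10.7 CPM in hypoxia and 2.82 to 6.71 CPM in normoxia. Most of these sums was Lipe, which encodes hormone-sensitive lipase and had 25 to 70 counts (1.86 to 4.37 CPM), except in the samples numbered 4, where Adipoq added 3.54 and 1.28 CPM. None of the 3 tested passed limma-trend, at an unadjusted p under 0.05 or in the edgeR, DESeq2 and limma-voom tests. The 7 markers of adipocyte-primed stroma of the bone marrow include Lpl, Adipoq and the leptin receptor gene Lepr. Of these 7 markers 1 was higher and 1 lower (28.6% called, against 34.6% of all tested genes). They summed to 1054 to 2042 CPM in hypoxia and 947 to 1811 CPM in normoxia. Nearly all of that was the chemokine gene Cxcl12, at 878 to 1835 CPM in hypoxia and 732 to 1555 CPM in normoxia, so the sums say little of Lpl, Adipoq and Lepr. The osteoblast markers summed to 185 to 234 CPM in hypoxia and 111 to 168 CPM in normoxia, most of it Alpl. Of 4 tested osteoblast markers 2 were called lower, which is 50% against 34.6% of all tested genes. These were Sp7 and Alpl, with log2 changes of -0.80 and -0.48.

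Around the 10 genes, 7 lists of other genes of the pathway were examined. Of 22 tested regulators that promote adipogenesis 3 rose and 7 fell, with a median log2 change of -0.027. The rises were led by Klf9 (log2 change 0.37, limma-trend adjusted p = 0.011), a Krüppel-like factor, and by the growth factor gene Bmp4 (0.33, adjusted p = 0.0116). Zfp467 and Zfp423, zinc finger factors of the adipocyte lineage, fell by 0.75 (limma-trend adjusted p = 0.00153) and 0.70 (adjusted p = 0.0461) on the log2 scale. The call of Zfp423 was lost on leaving out any 1 sample except hypoxia replicate 1 and normoxia replicate 4 (limma-trend adjusted p up to 0.131), and the falls in this list numbered 3 or 4 without hypoxia replicate 3 or 4 or normoxia replicate 1, 2 or 3. Of 24 tested regulators that restrain adipogenesis 0 rose and 5 fell, with a median of -0.068. For the rises, 1 gene had an unadjusted p under 0.05 with limma-trend, and edgeR, DESeq2 and limma-voom called 0. There was 1 rise without hypoxia replicate 1 or without normoxia replicate 2. Dlk1, which encodes the preadipocyte factor Pref-1, fell from 76.5 ± 32.9 to 32.1 ± 11.1 CPM (SD, n = 4), a log2 change of -1.22 (SE 0.26, limma-trend adjusted p = 0.00371). Klf2, a repressor of Pparg, fell from 52.4 ± 5.12 to 27.7 ± 2.75 CPM (log2 change -0.91, limma-trend adjusted p = 6.18e-05). With the block these lists had 5 higher and 8 lower, and 1 higher and 8 lower. Genes of both lists fell, and the share called was 45.5% of the first list and 20.8% of the second against 34.6% of all tested genes.

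Of 13 tested genes for fatty acid uptake, binding and the control of lipoprotein lipase 1 rose and 6 fell, which is 53.8% called against 34.6% of all tested genes. The rise was that of Angptl4, which encodes a secreted inhibitor of lipoprotein lipase, from 26.2 ± 1.88 to 46.3 ± 4.49 CPM (log2 change 0.82, SE 0.085, limma-trend adjusted p = 8.36e-05). Gpihbp1, the endothelial anchor of lipoprotein lipase, had 0 counts in every sample. Apoe, the apolipoprotein of lipid transport that macrophages also make, fell from 45.9 ± 10.8 to 16.5 ± 1.18 CPM (log2 change -1.43, SE 0.145, limma-trend adjusted p = 7.42e-05). Slc27a3, of the fatty acid transport protein family, fell by 0.60 on the log2 scale (limma-trend adjusted p = 0.0159).

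Of 18 tested genes for triglyceride synthesis 4 rose and 3 fell, beside 34.6% called among all tested genes. Acsl4, an enzyme that activates long fatty acids, rose from 26.9 ± 4.4 to 48.7 ± 5.36 CPM and Lpin3, of the lipin family, from 8.10 ± 1.24 to 14.2 ± 1.33 CPM (SD, n = 4). Their log2 changes were 0.86 (limma-trend adjusted p = 0.000235) and 0.80 (adjusted p = 0.000602). Dgat1, which catalyses the last step to triglyceride, fell by 0.42 (limma-trend adjusted p = 0.00359), and Mogat2, with only 10 to 74 counts, fell by 1.19 on the log2 scale (adjusted p = 0.00303).

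Of 9 tested lipid droplet proteins 0 rose and 3 fell (limma-trend; for rises, 1 gene had an unadjusted p under 0.05, and edgeR, DESeq2 and limma-voom called 0). G0s2, an inhibitor of the triglyceride lipase ATGL, fell by 1.03 (limma-trend adjusted p = 0.00183) and Tmem159, which encodes a droplet assembly factor, by 0.39 (adjusted p = 0.00297) on the log2 scale. Without hypoxia replicate 1 this list had 1 higher and 5 lower, and with the block 1 higher and 4 lower. The share called, 33.3%, was near the 34.6% of all tested genes.

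Of 5 tested lipolysis genes none passed limma-trend in either direction. For falls 1 gene had an unadjusted p under 0.05 and for rises 0 had, while edgeR, DESeq2 and limma-voom called 0 in each direction. With the block 1 was higher and 1 lower.

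Of 21 tested fatty acid oxidation genes 4 rose and 2 fell (28.6% called, against 34.6% of all tested genes). Pdk4, a kinase that holds back the oxidation of glucose carbon, rose by 0.53 (limma-trend adjusted p = 0.00304) and Etfdh, of electron transfer from fatty acid oxidation, by 0.30 (adjusted p = 0.00696) on the log2 scale. Hadh, a mitochondrial β-oxidation enzyme, fell by 0.43 (limma-trend adjusted p = 0.00307) and Acaa2, the thiolase of the same pathway, fell by 0.24 (adjusted p = 0.0281). The call of Acaa2 was lost without hypoxia replicate 3 or 4 or normoxia replicate 1, 2 or 3, which left 1 fall in the list each time. With the block and the correction for GC content and length, Etfdh and Acaa2 no longer passed (limma-trend adjusted p = 0.147 and 0.121). The medians of the last 4 lists were 0.0509 for triglyceride synthesis, -0.0986 for droplet proteins, -0.00389 for lipolysis and 0.00203 for oxidation, and that of the uptake list was -0.105.

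**Figure D5:**
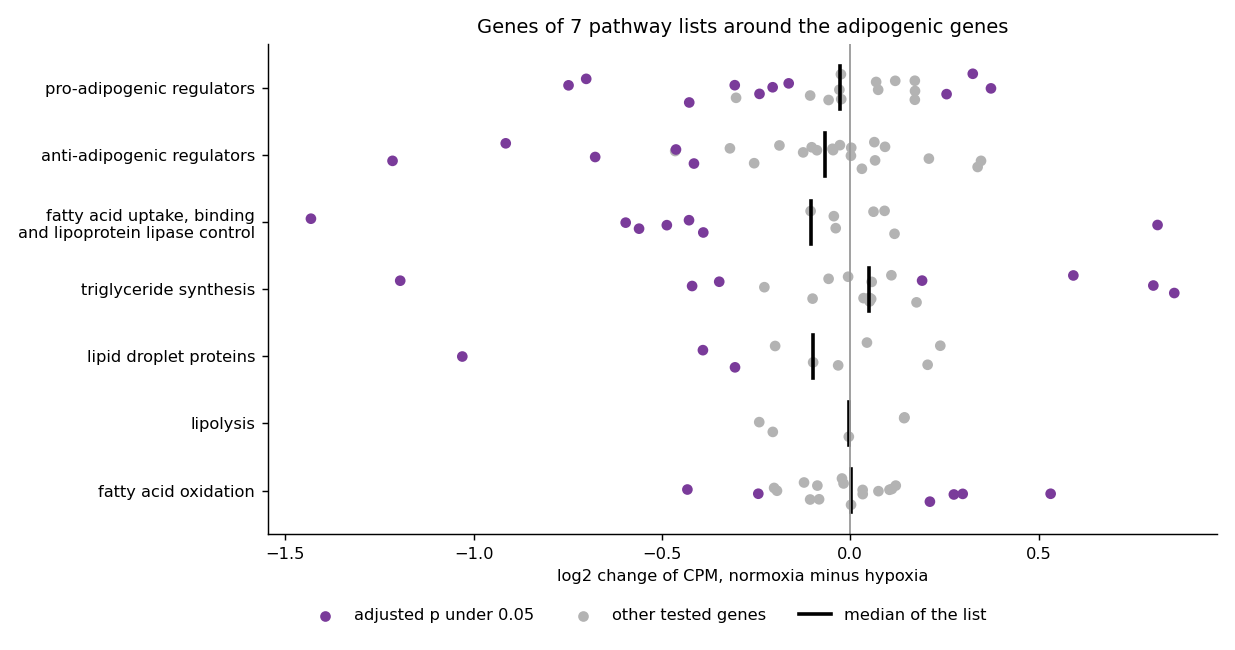
Log2 change of CPM (horizontal axis, normoxia minus hypoxia) of every tested gene in 7 pathway lists (rows), in purple where the limma-trend adjusted p is under 0.05 and in grey otherwise, with a black line at the median of each list. The points are spread vertically only for legibility. All medians lie between -0.105 and 0.0509, and calls lie on both sides of 0 in 4 of the lists.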

How the data were processed

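RNA was measured in 4 hypoxia-cultured and 4 normoxia-cultured MSC samples. The authors sequenced total RNA libraries as single-end reads, processed them with zUMIs, STAR, samtools and featureCounts on mm10 (GRCm38) with Ensembl annotation, and deposited raw counts per gene. The treatment of strand, introns and multiply mapped reads is not given in the sources used here. Symbols and positions came from GENCODE M21 (GRCm38), and identifiers without a symbol held 0.00364% of counts.

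Genes were kept by filterByExpr (edgeR 4.0.16, minimum count 5), which left 14369 genes. Counts were scaled by TMM, expressed as log2 CPM with a prior count of 3, which shrinks changes at low counts, and compared by limma-trend (limma 3.58.1, R 4.3.3) without a block, at a Benjamini-Hochberg adjusted threshold of 0.05. CPM printed per sample carry no prior count. The correction for GC content and length removed natural splines with 5 degrees of freedom, over 14353 genes, and with them any true change that follows these properties. The edgeR quasi-likelihood test, DESeq2 1.42.0, limma-voom, other scalings, filters and prior counts, and leaving out samples or pairs were alternatives. The fits were tested on simulated data.

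The study divided each sorted population between both oxygen levels, and the deviations of same-numbered samples from their group means correlated across genes, at 0.474, 0.275, 0.249 and 0.172 for numbers 1 to 4. The numbers were therefore taken to pair the samples, an assumption on which the calls of Lpl, Cd36 and Plin2 with the block rest. No such correlations are given here for samples with different numbers. Genes named are the 10 members and, from each pathway list, the 2 largest rises and 2 largest falls that passed the test. The other genes named (overlapping genes, cell type markers and Gpihbp1, an anchor of lipoprotein lipase) were chosen after their values were seen. The members and lists were chosen with earlier results of these data known. RefSeq windows of 250 bases before start sites were held for 6 of the 10 genes.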

Additional observations from a re-analysis of the deposited data

How the results depend on the processing

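Cebpa stayed lower and Cebpd higher, both past the threshold, under all 25 alternatives. Members called higher, 1 in the comparison as reported, numbered 4 with the replicate block, 5 with the replicate block and GC and length correction, 3 with the correction alone, 2 with total count normalization (Lpl, limma-trend adjusted p = 0.0493), 3 with the block and any of pairs 1 to 4 left out, 4 with the block in edgeR, 3 with the block in DESeq2 and 4 with the macrophage covariate. Members called lower, also 1, numbered 2 with the block and correction, 2 with the block in edgeR and 2 with the block and pair 1, pair 2 or pair 3 left out (Pparg, Fabp4 and Adipoq in turn). Leaving out 1 sample gave 1 to 2 higher (Lpl joined without normoxia replicate 1, limma-trend adjusted p = 0.0155) and 1 to 2 lower (Fabp4 joined without hypoxia replicate 2, adjusted p = 0.0452). Adipoq ranged from -1.03 to 0.02 and Fabp4 from -0.485 to 0.0006 when 1 sample was left out, both changing sign without hypoxia replicate 4, and Klf5 was -0.0155 with the block and pair 4 left out, where the cause was not tested. The blocks in edgeR and DESeq2, pairs 2 to 4 left out, the macrophage covariate and, for the pathway lists, leaving out any sample but hypoxia replicate 1 were chosen after seeing the data. Beyond Lpl, Cd36 and Plin2, the block changed no other call among the members or the named pathway genes. Over all genes, total count normalization moved the share of calls that were higher in normoxia from 52.2% to 69.6% and the median log2 change from 0.00485 to 0.0892, and it changed the sign of no member. Adipoq, at 2 to 46 counts, is the member most limited by depth.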
